A study of Mus musculus with 4 samples.

Results

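The genes described here are 10 of the 32285 measured genes: Cdh5, Cldn5, Pecam1, Esam, Tjp1, Jam2, Jam3, Icam1, Vcam1 and Cgn. They were chosen by name, as parts of endothelial cell contacts and of the machinery with which endothelium holds leukocytes. The rule itself used no measured value, but the list was chosen with earlier results of these data known. All 10 were found in the data. Endothelial cells are joined by adherens junctions, built on VE-cadherin, and by tight junctions, built on claudins, junctional adhesion molecules and cytoplasmic scaffolds. Initial lymphatic vessels are known for discontinuous, button-like junctions through which fluid enters, and collecting vessels for continuous, zipper-like ones that keep lymph inside. Blood endothelium, above all in venules, shows selectins and the immunoglobulin-family receptors ICAM-1 and VCAM-1 to passing leukocytes.

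Cells came from lymphatic vessels of the collecting type and from the tissue around them in C57BL/6J mice of 12 to 14 weeks, 4 female and 4 male, for which the labels give no mutation or treatment. For each of the 8 mice, vessels of 4 anatomical regions were combined, and tagged cells were pooled within each sex. The labels list a gene expression library and a tag library for females and the same for males. The files hold 1 table of 24046 cell barcodes that end in a number suffix of 1 to 8, and the labels tie no suffix to a mouse or a sex. The table was therefore described as 1 pooled sample, and no test and no comparison of the sexes was made. The 8 suffixes are given as unlabelled samples by their lowest, median and highest level. Suffixes 1 to 4 and 5 to 8 each used the same 4 tags. Within these sets no barcode sequence was shared by suffixes, and 44 were shared across them.

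The suffixes held 23828933 to 32467001 gene UMIs each, a UMI being 1 counted molecule. After removal of poor cells and called doublets 22947 cells were left, of which 18551 passed the marker gate of exactly 1 cell class. No gate used any of the 10 genes. Lymphatic endothelium, gated on Prox1, had 415 cells of the collecting type (neither Lyve1 nor Ccl21a found), 64 initial cells (both found) and 41 intermediate ones. Of the collecting cells, 83 were valve-type, with at least 3 of Foxc2, Gja4, Neo1 and Itga9. Blood endothelium, gated on Flt1, had 101 Plvap-positive cells, 141 Rgcc-positive cells and 25 with no preference. Here CPM gives the UMIs of a gene per 1000000 UMIs of the class, and its interval is an exact 95% Poisson interval for counting error only. Since 3'-end UMI counts need not follow transcript abundance alike for all genes, levels are compared within a gene and not between genes. The labels were set beside genes that did not split the lymphatic or the blood classes. All of these genes were, however, among the markers of the lymphatic or blood endothelial gates. Reln, a lymphatic gene, was at 38.7 CPM in collecting and 2111 CPM in initial cells, the venular receptor gene Ackr1 at 477 CPM in Plvap-positive cells and 0 in Rgcc-positive cells, and the arterial gene Sox17 at 158 and 599 CPM in these classes. In a summed level, fewer cells with a gene and less of its RNA per cell cannot be told apart.

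**Figure D1:**
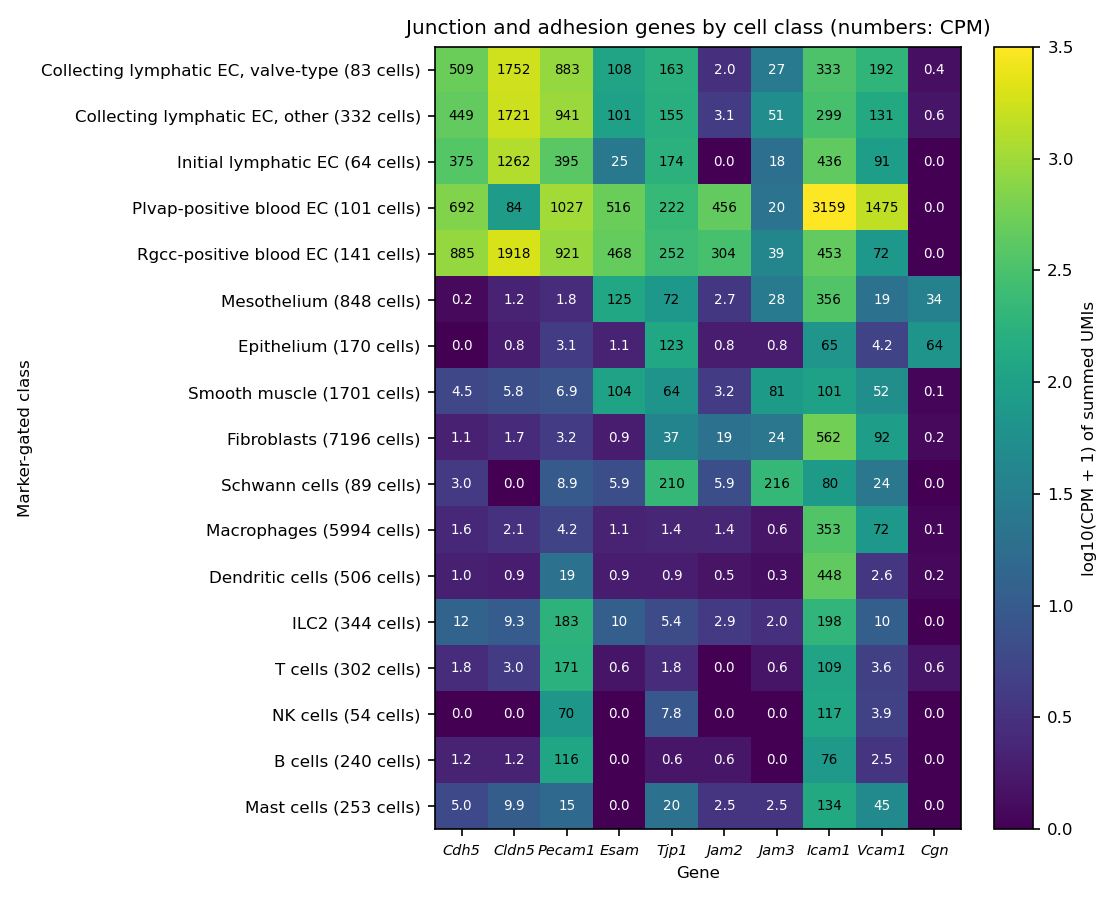
Each row is a marker-gated cell class with 50 cells or more, each column 1 of the 10 genes, and colour and number give the level (colour as log10(CPM + 1), numbers as CPM of summed UMIs). Cdh5 and Cldn5 are high in endothelial rows only, except Cldn5 in Plvap-positive blood endothelium at 83.7 CPM, whereas Icam1 is above 60 CPM in all 17 rows and Cgn is above 10 CPM in epithelium and mesothelium alone.

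Cdh5 encodes VE-cadherin, the transmembrane cadherin of endothelial adherens junctions (GRCm38, chromosome 8, 104101625 to 104144511, plus strand, per GENCODE M21). Its level was 473 CPM (456 to 491) in collecting cells, 375 CPM (334 to 419) in initial cells, 692 CPM (639 to 747) in Plvap-positive cells and 885 CPM (813 to 963) in Rgcc-positive cells. The gene was thus high in all endothelial classes, and the pooled levels of the blood classes lay above those of the lymphatic ones. Over the 12 other described classes it was highest in ILC2, the type 2 innate lymphoid cells, at 12.2 CPM, and all 25 UMIs there came from 3 of 344 cells. Of all Cdh5 UMIs in gated cells, 94.5% were in endothelium, which made up 4.24% of those cells and held 5.11% of their UMIs.

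Cldn5, the main claudin of endothelial tight junctions (chromosome 16, 18776847 to 18778262, plus strand), was just as restricted, with 97.4% of its UMIs in endothelium. Collecting cells had 1734 CPM (1701 to 1768), initial cells 1262 CPM (1187 to 1340) and Rgcc-positive cells 1918 CPM (1811 to 2031). Plvap-positive cells stood apart with 83.7 CPM (66.1 to 104). Pecam1, the homophilic adhesion receptor CD31 (chromosome 11, 106654217 to 106750628, minus strand), had 83.7% of its UMIs in endothelium. It was also found in lymphocytes, at 183 CPM in ILC2, 171 CPM in T cells, 116 CPM in B cells and 70.0 CPM in NK cells, but only at 4.20 CPM in macrophages.

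Shares of cells were compared at equal depth, for which 1000 UMIs were drawn from each cell (8 collecting cells, 0 initial, 0 Plvap-positive and 3 Rgcc-positive cells had fewer). Cldn5 was then found in 75.4% of collecting cells, 70.3% of initial cells (57.6% to 81.1%, exact Clopper-Pearson interval), 7.92% of Plvap-positive cells and 76.1% of Rgcc-positive cells. Without thinning these shares were 96.9%, 100%, 16.8% and 86.5%. In B cells, which should lack the gene, the thinned share was 0% and the unthinned share 0.833%, at a median depth of 5038 UMIs, against 8195 in collecting, 8865.5 in initial, 8307 in Plvap-positive and 3427 in Rgcc-positive cells. At least 1 of Cdh5, Cldn5, Pecam1 and Esam was found at 1000 UMIs in 89.1% of initial, 83.2% of Plvap-positive and 95.7% of Rgcc-positive cells, against 17.6% of T cells, 11.4% of mesothelial cells, 10.9% of smooth muscle cells, 10.8% of ILC2, 8.33% of B cells and 0.936% of macrophages. All 4 together were found in 13.8% of Rgcc-positive and 1.23% of collecting cells, and in 0 of 64 initial cells, where the interval reaches 5.60%.

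The other members were less bound to endothelium. Esam, a junctional immunoglobulin-family receptor of endothelium and platelets (chromosome 9, 37528078 to 37538319, plus strand), had 32.7% of its UMIs in endothelium, 32.6% in mesothelium and 30.5% in smooth muscle. Its levels in mesothelium (125 CPM, 119 to 131), smooth muscle (104 CPM, 99.2 to 110) and collecting lymphatic cells (104 CPM, 96.1 to 113) were close to each other. Smooth muscle cells fell into 3 clusters of 50 cells or more, built without any listed junction or adhesion gene. Esam stood in all of them, at 120 CPM in the one led by Sorbs2 and Pln, 105 CPM in the one led by H2-M9 and Frmpd4, and 73.4 CPM in the one led by Fmo2 and Col14a1. These clusters also held Cdh5 at 0 to 1.73 CPM, so the defining endothelial gene was near 0 where Esam was not. Platelet markers summed to 23.9 CPM in collecting cells, 30.0 in initial cells, 47.2 in Plvap-positive cells, 47.1 in Rgcc-positive cells and 29.4 in mesothelium, and Ppbp and Gp9 were at 0 in these classes.

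Jam3, whose product JAM-C joins endothelial, muscle and myelinating glial cells (chromosome 9, 27097384 to 27155421, minus strand), was highest in Schwann cells at 216 CPM (169 to 272). Smooth muscle followed at 80.9 CPM (76.2 to 85.7), above the 41.4 CPM of collecting cells. In smooth muscle 45.9% of cells had a Jam3 UMI, and the level ran over its 3 clusters within a narrow band of 78.8 to 94.1 CPM. Tjp1, the scaffold ZO-1 that ties junction proteins to actin (chromosome 7, 65296165 to 65527781, minus strand), had its highest levels in Rgcc-positive cells (252 CPM), Plvap-positive cells (222 CPM) and Schwann cells (210 CPM), with overlapping intervals. Fibroblasts, at only 36.6 CPM, held 43.8% of Tjp1 UMIs in gated cells, which is under their 46.5% of all UMIs of gated cells.

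Jam2, encoding JAM-B of blood vessel junctions (chromosome 16, 84774123 to 84825928, plus strand), was found at 10 CPM or more in 3 of 17 classes: Plvap-positive cells (456 CPM), Rgcc-positive cells (304 CPM) and fibroblasts (19.3 CPM, 18.3 to 20.2). Fibroblasts held 66.5% of its UMIs, against 46.5% of all UMIs of gated cells. Over 7 fibroblast clusters the level ran from 3.83 CPM, in the cluster led by Edn1 and Stmn4, to 40.1 CPM (36.6 to 43.9), in the cluster led by Thbs1 and Tcf21. Cgn, the tight junction adaptor cingulin of epithelia (chromosome 3, 94760069 to 94786492, minus strand), was near 0 in all endothelial classes. It reached 63.8 CPM (55.7 to 72.7) in epithelium, whose cells came from suffixes 1 to 4 only, and 33.9 CPM (30.7 to 37.3) in mesothelium. Endothelium as a whole had 3 Cgn UMIs in 787 cells, or 0.320 CPM.

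**Figure D2:**
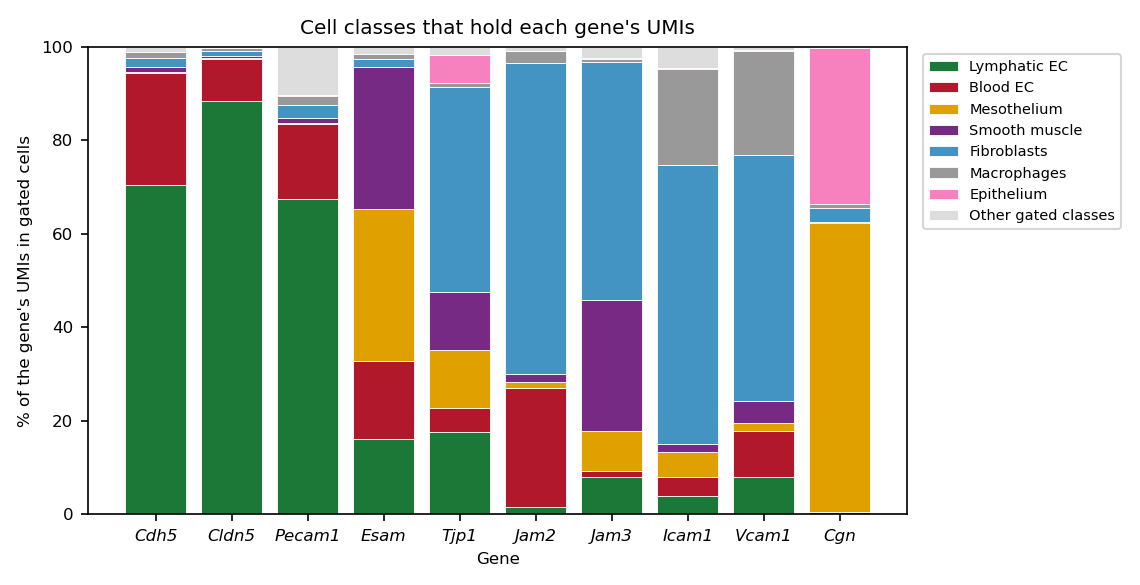
Each bar is 1 gene and its colours give the percentage of that gene's UMIs, among gated cells, that each cell class holds. Endothelium (lymphatic and blood) holds 97.4% of Cldn5 and 94.5% of Cdh5 UMIs, but 32.7% of Esam, 26.9% of Jam2, 17.9% of Vcam1, 9.12% of Jam3, 7.87% of Icam1 and 0.442% of Cgn UMIs. It holds 5.11% of all UMIs of gated cells.

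Icam1, the ligand of leukocyte LFA-1 and Mac-1 integrins (chromosome 9, 21015985 to 21028817, plus strand), was the most widespread member and exceeded 10 CPM in all 17 classes. Fibroblasts held 59.7% and macrophages 20.4% of its UMIs, at 562 CPM (557 to 567) and 353 CPM (348 to 359). Of all UMIs of gated cells, fibroblasts held 46.5% and macrophages 25.3%. Over the 7 fibroblast clusters Icam1 ran from 191 CPM, in the cluster led by Tmtc2 and Col8a1, to 1219 CPM (1203 to 1236), in the one led by the chemokine gene Ccl19. Vcam1, the ligand of the integrin VLA-4 (chromosome 3, 116109949 to 116129688, minus strand), had 52.5% of its UMIs in fibroblasts and 22.4% in macrophages, near the 46.5% and 25.3% of all UMIs. It stood at 91.6 CPM in fibroblasts, with 154 CPM in the Thbs1-led cluster and 33.5 CPM in the Edn1-led one. In macrophages it averaged 72.0 CPM, but 218 CPM in the cluster led by Mucl1 and Basp1. Macrophages with a UMI of Spic, a transcription factor of red pulp macrophages, had 187 CPM (177 to 197) of Vcam1 in 882 cells, and the 5112 others had 50.7 CPM (48.5 to 53.0). Spic was chosen after Vcam1 levels had been seen, and median depth was 7749.5 UMIs in Spic-positive and 7265 in the other macrophages. Icam1 ran the other way in these cells, at 309 CPM with Spic and 362 CPM without. In smooth muscle Vcam1 was at 121 CPM (105 to 138) in the Fmo2-led cluster, 48.7 CPM in the H2-M9-led one and 3.55 CPM (1.70 to 6.53) in the Sorbs2-led one. Col14a1 and Dpt, which follow Fmo2 in that cluster, are known from fibroblasts, and 82.5% of its gated cells were smooth muscle, against 99.7% in the Sorbs2-led and 99.9% in the H2-M9-led cluster. The part of fibroblast RNA in its Vcam1 level was not tested. The fibroblast, smooth muscle and macrophage clusters were looked at after class levels had been seen.

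Ordered by level, the 17 classes form 16 neighbouring pairs for each gene, and the intervals of 10 (Pecam1) to 14 (Esam, Jam2, Jam3 and Cgn) of these overlapped. For Pecam1, Plvap-positive, other collecting, Rgcc-positive and valve-type cells overlapped in sequence at the top, and initial cells stood apart below them. For Cdh5, Rgcc-positive, Plvap-positive and valve-type cells (509 CPM) each stood apart from the next by these intervals of counting error. Their suffix ranges overlapped from each class to the next, at 766 to 1113, 451 to 804 and 393 to 633 CPM. Other collecting cells ran from 385 to 554 CPM. For Icam1, Plvap-positive cells and then fibroblasts stood apart, and Rgcc-positive cells, dendritic cells (448 CPM) and initial lymphatic cells overlapped. The suffix range of fibroblasts (477 to 639 CPM) lay inside that of Rgcc-positive cells (132 to 1377 CPM).

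The first comparison asks how the collecting and the initial lymphatic lining differ in these genes. Of the 10 genes, 8 reached 20 CPM in either class, and 3 of them (Pecam1, Esam and Jam3) were higher in collecting cells by 2-fold or more with an interval on one side of 1, here named a call. Of all 6982 genes at that level, 7.16% were called higher and 7.82% lower in collecting cells. No member was called lower. The members' median log2 ratio was 0.61, against -0.06 for all genes. The list was chosen with earlier results of these data known. Here and in the later comparisons the shares over all genes are therefore a background only.

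Pecam1 stood at 745, 926 and 980 CPM (lowest, median and highest suffix) in collecting cells, against 347, 399 and 551 CPM in initial cells. The suffix ranges did not overlap, though a suffix held only 3 to 24 initial cells, against 27 to 87 collecting cells. This holds for all suffix ranges of these 2 classes. The pooled Pecam1 level was 917 CPM against 395 CPM, a ratio of 2.32 (2.08 to 2.60). The ratio was 2.30 within suffixes 1 to 4 and 2.33 within suffixes 5 to 8. Esam had 83.5, 103 and 128 CPM in collecting cells, against 14.4, 30.2 and 53.8 CPM in initial cells, again without overlap. Its ratio of 4.13 (2.68 to 6.72) was the highest of the members measured in both classes, with 2.62 in the first and 5.40 in the second set of suffixes. It rests on 21 Esam UMIs in 18 of 64 initial cells.

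Jam3 had 31.6, 35.3 and 63.7 CPM in collecting cells and 0, 17.1 and 63.0 CPM in initial cells, so that the ranges overlapped. Its ratio of 2.29 (1.36 to 4.16) rests on 15 UMIs in initial cells, 9 of them in 3 cells. With classes taken from clusters it was 1.69, with mixed cells kept 1.63, and with markers counted only at 2 UMIs or more 1.45, all under 2-fold. Within suffixes 1 to 4 it was 2.62 with an interval of 0.864 to 12.9.

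The defining junction genes Cdh5 and Cldn5 differed less. Cdh5 ran over 391, 458 and 556 CPM in collecting cells and 303, 381 and 782 CPM in initial cells, with a ratio of 1.26 (1.12 to 1.42). Cldn5 had 1475, 1647 and 2071 CPM in collecting cells and 751, 1222 and 2022 CPM in initial cells, with a ratio of 1.37 (1.29 to 1.47) that was 1.14 in the first and 1.52 in the second set of suffixes. Both ranges overlapped, and neither ratio reached 2-fold. Tjp1 was at 158 CPM in collecting and 174 CPM in initial cells, and its ratio interval (0.761 to 1.09) included 1. Icam1 was lower in collecting cells at 313 CPM, against 436 CPM in initial cells, a ratio of 0.718 (0.641 to 0.805), which was 0.954 in the first set of suffixes (0.756 to 1.22) and 0.648 in the second. Jam2 had 16 UMIs in collecting cells, 11 of them in 3 cells, and 0 in initial cells (at most 4.43 CPM), so no fold is given.

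Vcam1 rested on few initial cells. It had 156 CPM (146 to 166) in collecting and 91.3 CPM (72.0 to 114) in initial cells, a pooled ratio of 1.71 (1.35 to 2.19). In initial cells it was found in 8 of 64 cells, and 67 of the 76 UMIs were in 3 of them, without which the level would be 10.8 CPM. In collecting cells it was found in 148 of 415 cells, and the level without the 3 highest cells was 122 CPM. The sets of suffixes differed: within suffixes 1 to 4 the 24 initial cells had 0 UMIs and collecting cells had 204 CPM, at least 16.1-fold higher against 3 UMIs over that class, while within suffixes 5 to 8 collecting cells had 123 CPM and initial cells 128 CPM. With mixed cells kept the ratio was 2.06, and with each cell weighted alike 2.47.

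**Figure D3:**
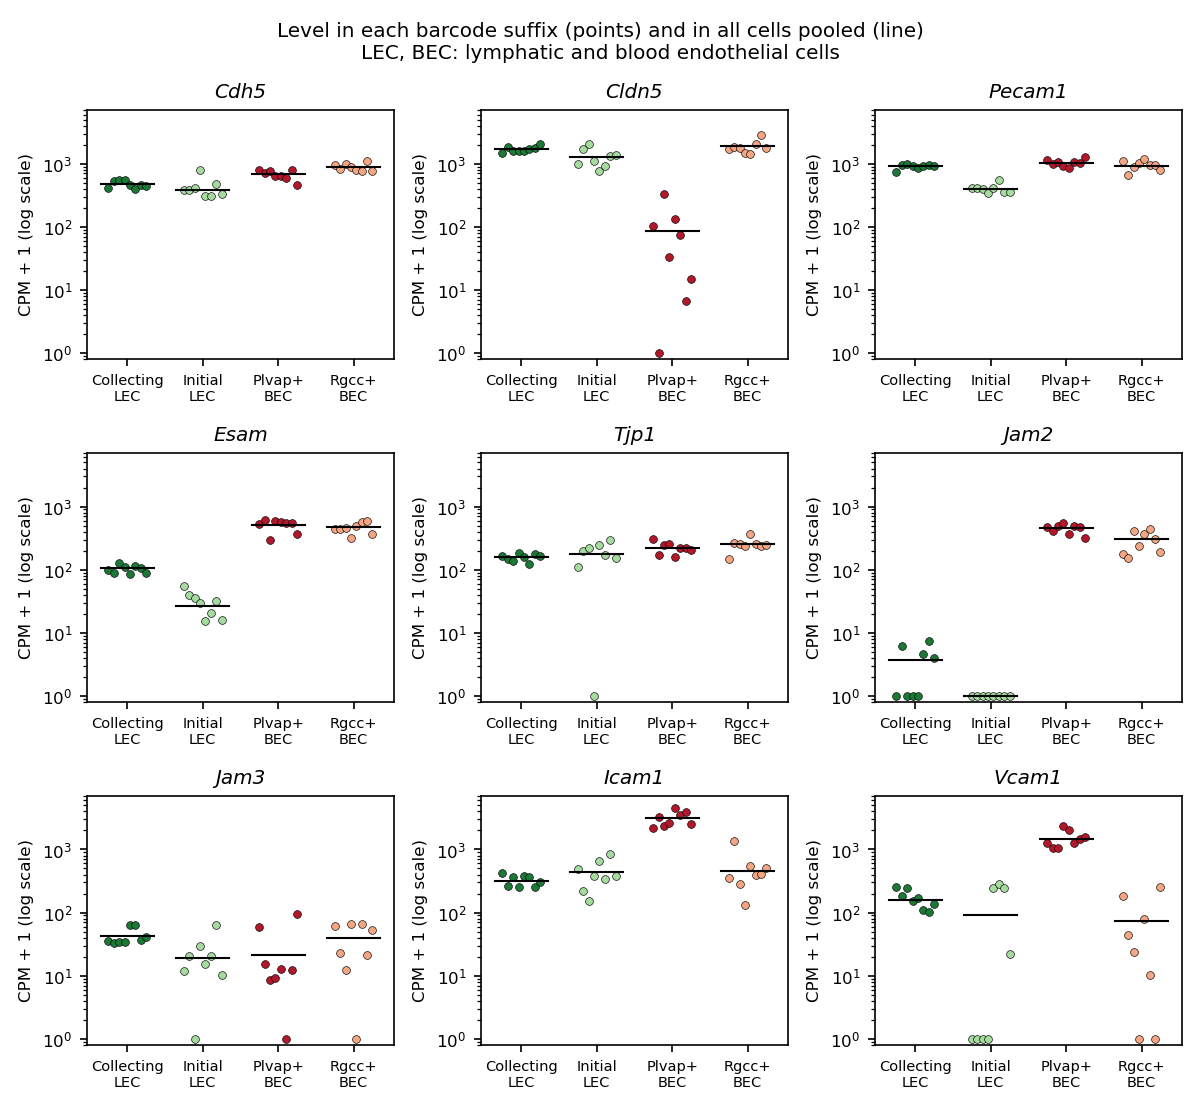
Each panel is 1 gene, each point the level of 1 barcode suffix and each line the level of all cells pooled, as CPM + 1 on a log axis, in collecting and initial lymphatic endothelial cells (LEC) and in Plvap-positive and Rgcc-positive blood endothelial cells (BEC). Points of collecting cells lie above all points of initial cells for Pecam1 and Esam, points of Plvap-positive cells lie above all points of Rgcc-positive cells for Icam1 and Vcam1 and below them for Cldn5.

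In the wider list, 1 of 9 adherens junction genes at 20 CPM was called higher and 0 lower in collecting cells. It was Cdh13, the membrane-anchored T-cadherin, at 618 CPM in collecting and 117 CPM in initial cells (ratio 5.30, 4.33 to 6.55). Of 5 tight junction genes, the cingulin relative Cgnl1 was called higher, at 153 CPM in collecting and 56.5 CPM in initial cells (2.70), and the scaffold Magi1 lower, at 368 and 765 CPM in these classes (0.480). Of 8 leukocyte adhesion genes 3 were called higher. P-selectin (Selp) had 212 CPM in collecting cells and 0 in initial cells, at least 58.7-fold higher against 3 UMIs over the class, and E-selectin (Sele) had 166 and 1.20 CPM. Cd34, at 35.5 CPM in collecting and 8.41 CPM in initial cells, was the other. Dissociation genes, known to be induced while tissue is taken apart, also differed: Fos, Egr1 and Dusp1 were called lower and Ier3 higher in collecting cells, and the list summed to 16513 CPM in collecting and 22495 CPM in initial cells. Macrophage gate genes summed to 25.1 CPM in collecting and 103 CPM in initial cells, with Mrc1, which lymphatic endothelium also expresses, at 14.2 and 88.9 CPM. The part of these values in the results was not tested.

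Valve-type cells line the leaflets that stop backflow in collecting vessels. The gate gene Foxc2, a regulator of valve formation, stood at 168 CPM in valve-type and 89.6 CPM in other collecting cells, so the gate separated them only in part. Of 8 members at 20 CPM 0 were called, against 1.55% of all 6564 genes (0.975% higher and 0.579% lower in valve-type cells). Vcam1 was at 192 CPM (175 to 211) in valve-type and 131 CPM (119 to 143) in other collecting cells, a ratio of 1.47 (1.29 to 1.67). Its suffixes ran from 13.8 to 430 CPM in valve-type cells, a range that encloses the 54.5 to 291 CPM of other collecting cells. Jam3 was at 27.4 CPM in valve-type and 51.0 CPM in other collecting cells (0.537, 0.400 to 0.715), lower in 7 of 8 suffixes. Cldn5 was close, at 1752 CPM in valve-type and 1721 CPM in other cells, with a ratio interval of 0.979 to 1.06. Median depth was 25920 UMIs in valve-type and 7351 in other cells. Among cells of 15000 UMIs or more the log2 ratio was 0.15 for Vcam1 and -0.72 for Jam3.

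Lymphatic and blood endothelium were then compared as wholes (520 and 267 cells). Of 9 members at 20 CPM, 1 was called higher in lymphatic cells and 4 lower, against 10.2% and 11.6% of all 7122 genes. The 4 lower ones were Jam2, Esam, Icam1 and Vcam1, and the higher one was Cldn5. Cdh5, Pecam1, Tjp1 and Jam3 lay within 2-fold, with ratios of 0.613 (0.575 to 0.654), 0.867 (0.821 to 0.916), 0.701 (0.624 to 0.789) and 1.56 (1.13 to 2.19).

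Jam2 separated the vessel types most. Lymphatic cells had 0, 4.60 and 17.7 CPM (lowest, median and highest suffix), against 239, 393 and 455 CPM in blood endothelium. The ranges were far apart, and lymphatic endothelium was 79.2-fold lower (57.0 to 113) at 4.89 CPM, against 387 CPM. Of the 38 lymphatic UMIs, 22 were in 4 of the 41 intermediate cells (22.9 CPM), so the size of this fold rests largely on few cells. Collecting cells had 2.68 CPM and initial cells 0. A Jam2 UMI was found in 2.31% of lymphatic and 68.5% of blood endothelial cells, at median depths of 8986 and 4220 UMIs, and in 0.417% of B cells. Esam ran over 70.5, 104 and 115 CPM in lymphatic cells and 355, 519 and 562 CPM in blood endothelium, a ratio of 0.200 (0.181 to 0.221) and without overlap. The lymphatic level of both receptors was therefore below that of the blood vessels in each of the 8 suffixes.

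The pooled ratio of Cldn5 was 2.06 (1.94 to 2.18), at 1686 CPM in lymphatic and 820 CPM in blood endothelium. The blood value averages classes that differ widely, 83.7 CPM in Plvap-positive and 1918 CPM in Rgcc-positive cells. With each cell weighted alike it was 1.26, within suffixes 5 to 8 it was 1.81, and among cells of 5000 UMIs or more its log2 value was 1.93. Icam1 and Vcam1 were 5.17-fold and 6.00-fold lower in lymphatic endothelium. The 41 intermediate cells in the lymphatic sum had 847 CPM of Icam1 (789 to 907), above initial cells at 436 CPM and collecting cells at 313 CPM. Set beside Rgcc-positive cells alone, Icam1 was at 313 CPM in collecting and 453 CPM in Rgcc-positive cells, and Vcam1 at 156 CPM in collecting and 71.5 CPM in Rgcc-positive cells.

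In the wider list, lymphatic endothelium had 1 of 9 adherens junction genes called higher (Nectin2, a nectin, at 200 CPM against 79.1 CPM in blood endothelium) and 0 lower. Of 5 tight junction genes 2 were called higher and 0 lower. Cgnl1 stood at 141 CPM in lymphatic and 28.4 CPM in blood endothelium. Cldn11, a claudin of myelin and testis that was named after its values were seen, was at 43.7 CPM in lymphatic endothelium and 0 in blood endothelium, at least 23.6-fold higher against 3 UMIs over the class. Of 8 leukocyte adhesion genes 0 were called higher and 4 lower: Selp, Sele, Cd34 and Mcam. Mcam was named after its values were seen. Cd34 was at 34.0 CPM in lymphatic and 269 CPM in blood endothelium. Markers of other cells were also lower in lymphatic endothelium. Red cell genes summed to 6.83 CPM in lymphatic and 486 CPM in blood endothelium (2 of 2 called lower), pericyte gate genes to 15.6 and 124 CPM, and fibroblast gate genes to 41.7 and 132 CPM. Platelet markers summed to 25.2 CPM in lymphatic and 51.3 CPM in blood endothelium, with the platelet chemokine Pf4 called lower and Ppbp and Gp9 at 0 in both. Without cells that had 5 or more red cell UMIs the same 5 members were called. That filter kept 265 of 267 blood and all 520 lymphatic cells, so it says little about red cell RNA in the cells kept. The part of the other markers was not tested.

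**Figure D4:**
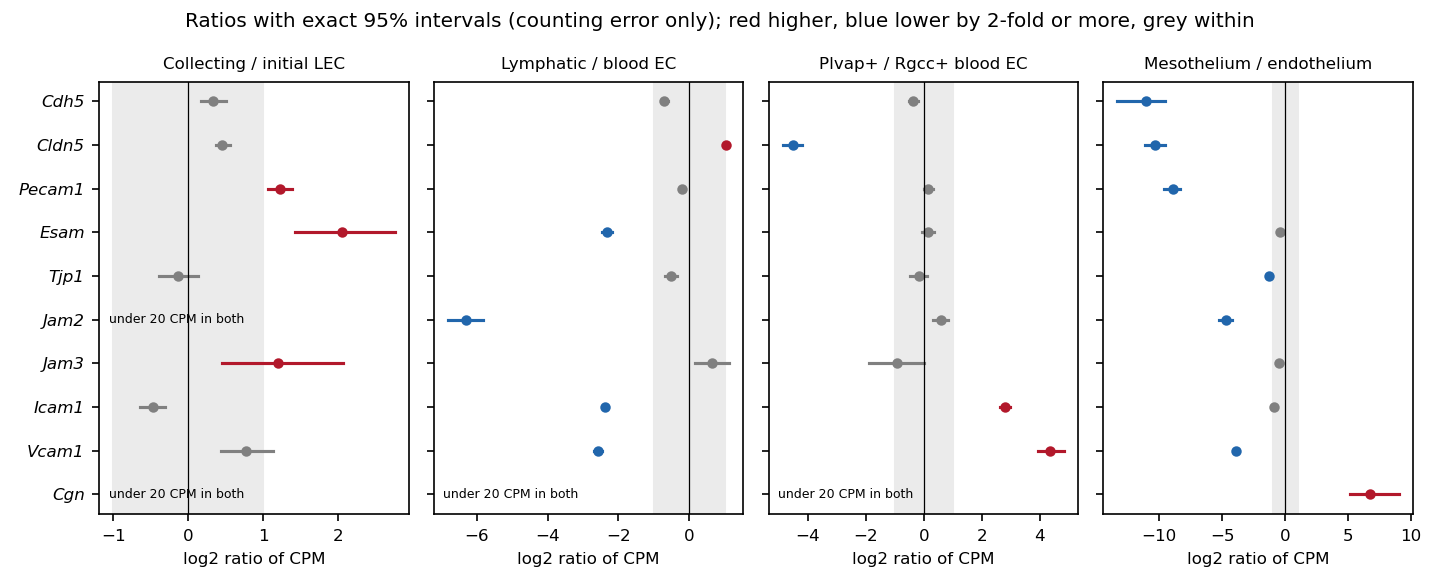
Points are log2 ratios of CPM for each gene in 4 comparisons and lines their exact 95% intervals for counting error only, with red for genes called higher, blue for those called lower and grey for those not called. Jam2 has the lowest lymphatic over blood ratio (-6.31), Vcam1 the highest Plvap-positive over Rgcc-positive ratio (4.37) and Cgn the highest mesothelium over endothelium ratio (6.73).

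Within blood endothelium, Vcam1 and Icam1 were higher in Plvap-positive cells and Cldn5 was lower there than in Rgcc-positive cells. Plvap encodes the diaphragm protein of fenestrae and caveolae of venular and some capillary endothelium, and Rgcc is a marker of capillary endothelium. Of 9 members at 20 CPM, 2 were called higher in Plvap-positive cells and 1 lower, against 7.16% and 13.6% of all 7152 genes. Vcam1 had 1041, 1383 and 2324 CPM (lowest, median and highest suffix) in Plvap-positive cells and 0, 33.1 and 249 CPM in Rgcc-positive cells, a ratio of 20.6 (15.3 to 28.5). Icam1 had 2170, 2939 and 4556 CPM in Plvap-positive cells and 132, 397 and 1377 CPM in Rgcc-positive cells, a ratio of 6.97 (6.16 to 7.91). Neither pair of ranges overlapped. Within suffixes 1 to 4 and 5 to 8 the ratio was 34.6 and 16.8 for Vcam1 and 5.89 and 8.12 for Icam1.

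Cldn5 went the opposite way, with 0, 53.0 and 329 CPM in Plvap-positive cells and 1404, 1772 and 2813 CPM in Rgcc-positive cells. The ranges were far apart, and Plvap-positive cells were 22.9-fold lower (18.2 to 29.2), by 14.5-fold in the first and 42.6-fold in the second set of suffixes. The Plvap-positive class was also uneven: 17 of 101 cells had a Cldn5 UMI, and 43 of the 78 UMIs were in 3 cells. Those 17 cells had 811 CPM of Vcam1 and the 84 without Cldn5 had 1601 CPM, at median depths of 8542 and 8205.5 UMIs. In Rgcc-positive cells 34 of the 44 Vcam1 UMIs lay in 3 cells, without which the level would be 16.2 CPM.

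The 6 other members at 20 CPM lay within 2-fold between the blood classes. Pecam1 was at 1027 CPM in Plvap-positive and 921 CPM in Rgcc-positive cells (ratio 1.11, 1.00 to 1.24), and Esam at 516 and 468 CPM in these classes (1.10, 0.951 to 1.28). Tjp1 was at 222 CPM in Plvap-positive and 252 CPM in Rgcc-positive cells, with a ratio of 0.882 (0.713 to 1.09). Cdh5 was lower in Plvap-positive cells in all 8 suffixes (0.781, 0.696 to 0.878), and Jam2 higher in all 8 (1.50, 1.26 to 1.79), both within 2-fold. Jam3 had 19 UMIs in Plvap-positive and 24 in Rgcc-positive cells, a ratio of 0.523 (0.271 to 0.996). It was called lower under 3 alternatives, with ratios of 0.384 with markers at 2 UMIs or more, 0.280 with classes from clusters and 0.392 with mixed cells kept.

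The selectins, which start leukocyte rolling, were also high in Plvap-positive cells. Selp stood at 8351 CPM in Plvap-positive and 66.6 CPM in Rgcc-positive cells, and Sele at 1907 and 1.62 CPM. Of the 85 Plvap-positive cells with a Selp UMI, 95.3% also had Vcam1, at 1584 CPM, against 43.8% and 369 CPM in the 16 without, whose median depth was 4590.5 UMIs against 9512. Icam1 was at 3389 CPM in the Selp-positive and 833 CPM in the other Plvap-positive cells. At an equal depth of 2000 UMIs, 60 of 95 Plvap-positive cells had both Icam1 and Vcam1 and 6 had neither. In collecting lymphatic cells Vcam1 was at 298 CPM in the 80 cells with Selp and 90.7 CPM in the 335 without, at median depths of 16537.5 and 7714 UMIs, while Icam1 was at 311 CPM with Selp and 314 CPM without. Alcam, another adhesion receptor gene, named after its values were seen, was the 1 of 7 leukocyte adhesion genes called lower in Plvap-positive cells, at 19.3 CPM against 43.9 CPM in Rgcc-positive cells.

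**Figure D5:**
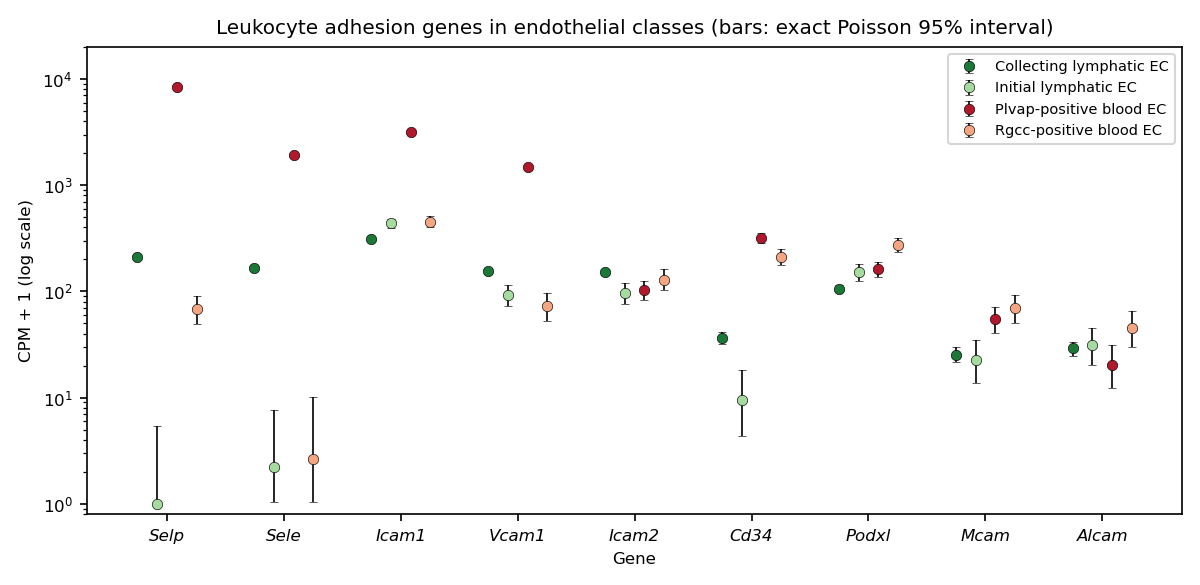
Points are levels of leukocyte adhesion genes as CPM + 1 on a log axis, with exact Poisson 95% intervals, in collecting and initial lymphatic and in Plvap-positive and Rgcc-positive blood endothelium. Selp, Sele, Icam1 and Vcam1 are highest in Plvap-positive cells (8351, 1907, 3159 and 1475 CPM), whereas Icam2 lies between 94.9 and 151 CPM in all 4 classes.

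In the wider list, Plvap-positive cells had 0 of 9 adherens junction genes called higher and 3 lower than Rgcc-positive cells. These were plakoglobin (Jup, 17.2 CPM against 143 CPM), afadin (Afdn, 187 CPM against 387 CPM) and Cdh13 (392 CPM against 978 CPM). Of 5 tight junction genes 0 were called higher and 2 lower. They were Cgnl1, at 10.7 CPM against 56.9 CPM, and Cldn15, at 3.22 CPM against 43.9 CPM. Nfkbia, an inhibitor and target of NF-kB that is in the dissociation list, stood at 4965 CPM in Plvap-positive and 1871 CPM in Rgcc-positive cells, and that list summed to 21853 and 17098 CPM in these classes. Red cell genes summed to 7.51 CPM in Plvap-positive and 1262 CPM in Rgcc-positive cells, where suffixes ran from 0 to 7978 CPM, pericyte gate genes to 55.8 and 227 CPM, and fibroblast gate genes to 37.5 and 270 CPM (up to 137 and 826 CPM in a suffix). Without cells that had 5 or more red cell UMIs the log2 ratio was 2.74 for Icam1, 4.30 for Vcam1 and -4.53 for Cldn5. That filter kept 139 of 141 Rgcc-positive and all 101 Plvap-positive cells. Among cells of 5000 UMIs or more (79 Plvap-positive and 33 Rgcc-positive) the log2 ratio was 3.24 for Icam1, 3.52 for Vcam1 and -4.40 for Cldn5. The part of the pericyte, fibroblast and dissociation genes in the results was not tested.

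Icam1 and Cldn5 differed in opposite directions between the blood classes, and the 250 bases before their RefSeq start sites are shown. The table of promoters (RefSeq, GRCm38.p6) held 4 of the 10 genes, and Cdh5, Pecam1, Esam, Jam2, Jam3 and Vcam1 had no entry. Capitals mark matches to the NF-kB-type pattern on either strand (GGG, any 5 bases, CC), which 45.8% of all 32851 promoter windows of this length hold. Cldn5 had 2 overlapping matches (chr16:18776597-18776846, plus strand) and Icam1 had 1 (chr9:21015690-21015939, plus strand). Tjp1 had 5 matches and Cgn 0. The bases after the start were found in an annotated transcript for Cldn5 but not for Icam1. A match describes letters only, and binding was not measured. Only this pattern was searched, so unmarked bases may hold sites of other letters. A link between the letters and the levels was not tested.
Cldn5 promoter: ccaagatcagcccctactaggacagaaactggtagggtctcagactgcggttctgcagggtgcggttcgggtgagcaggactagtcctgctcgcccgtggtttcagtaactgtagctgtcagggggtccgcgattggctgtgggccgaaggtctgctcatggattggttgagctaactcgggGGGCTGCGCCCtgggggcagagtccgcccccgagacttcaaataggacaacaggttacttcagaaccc
Icam1 promoter: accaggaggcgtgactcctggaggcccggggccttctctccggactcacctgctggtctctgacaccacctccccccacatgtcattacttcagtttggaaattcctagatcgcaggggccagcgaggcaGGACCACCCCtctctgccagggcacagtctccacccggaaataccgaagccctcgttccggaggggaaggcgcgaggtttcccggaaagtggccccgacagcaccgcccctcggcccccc

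Mesothelium, the serous lining of body cavities, was set against all 787 endothelial cells. All 10 members reached 20 CPM in either class. Of these, 6 were called lower and 1 higher in the 848 mesothelial cells, against 21.9% and 18.0% of all 7768 genes, or 39.9% either way. Cdh5 (0.242 CPM against 519 CPM in endothelium), Cldn5 (1.21 against 1537 CPM) and Pecam1 (1.77 against 873 CPM) were near 0, each found in 0.236% to 2.24% of cells. Jam2 (2.66 against 70.9 CPM), Vcam1 (18.9 against 284 CPM) and Tjp1 (71.7 against 173 CPM) were the other lower ones. The Jam2 level of endothelium averages 387 CPM in blood and 4.89 CPM in lymphatic endothelium. For Jam2, mesothelium was thus far below blood endothelium but close to collecting lymphatic cells (2.68 CPM, 1.53 to 4.35).

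Cgn was the member called higher, at 33.9 CPM in mesothelium and 0.320 CPM in endothelium (ratio 106, 36.0 to 516). It had 24.2, 33.9 and 39.8 CPM (lowest, median and highest suffix), and 300 of 848 mesothelial cells had a UMI. The mesothelium kept 3 members within 2-fold of pooled endothelium: Esam at 0.755 (0.704 to 0.811), Jam3 at 0.717 (0.617 to 0.834) and Icam1 at 0.528 (0.508 to 0.549). Esam was at 125 CPM in mesothelium, 98.0 CPM in lymphatic and 490 CPM in blood endothelium. In the same order Icam1 was at 356, 392 and 2027 CPM, and Jam3 at 27.8, 41.3 and 26.6 CPM. For Esam and Icam1 the closeness therefore holds for lymphatic endothelium as a whole, not for blood endothelium. Vcam1 differed between the sets of suffixes, 30.2-fold lower in the first and 9.23-fold lower in the second.

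Of 9 tight junction genes of the wider list, 4 were called higher in mesothelium and 2 lower. Cldn15 was at 438 CPM in mesothelium and 4.58 CPM in endothelium, and Cldn1, Cldn3 and Patj, named after their values were seen, were at 21.1, 24.0 and 21.7 CPM in mesothelium. Lower were Magi1, at 96.4 CPM against 461 CPM, and Cldn11, at 0 CPM against 36.1 CPM, at least 149-fold lower against 3 UMIs over the class. Of 10 adherens junction genes 1 was called higher and 5 lower. Cdh11, a mesenchymal cadherin, was higher at 348 CPM in mesothelium against 3.62 CPM in endothelium, and Cdh13 (0.968 against 567 CPM), Pkp4, Ctnnd1, Ctnnb1 and Afdn were lower. Of 8 leukocyte adhesion genes 1 was called higher and 5 lower, with Cd34 higher at 440 CPM against 74.6 CPM. Dissociation genes summed to 35673 CPM in mesothelium, against 15351 CPM in other collecting, 18190 in valve-type, 22495 in initial, 21853 in Plvap-positive and 17098 in Rgcc-positive cells, and 4 of 8 were called higher in mesothelium. Their part in these results was not tested.

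Of the leukocyte counter-receptors, Itgb2 and Itgal, which encode the chains of the ICAM-1 receptor LFA-1 and were named after their values were seen, were near 0 in endothelium and mesothelium. Itgb2 stood at 0.670 to 4.87 CPM and Itgal at 0 to 3.25 CPM over collecting, initial, Plvap-positive, Rgcc-positive and mesothelial cells. Itga4, the alpha chain of the VCAM-1 receptor VLA-4 and likewise named after its values were seen, was called lower in Plvap-positive cells, at 5.36 CPM, against 29.2 CPM in Rgcc-positive cells (ratio 0.183, 0.0532 to 0.513). Itgb1, the beta chain of VLA-4 and of many other integrins, was at 205 to 469 CPM in these classes.

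Across the 17 classes, patterns were compared by Pearson's r of log2(CPM + 10), as a description over classes that share libraries and differ in depth. Cdh5 was most like Sox7 and Rasip1 (both r = 1.00), Cldn5 like Btnl9 (0.99) and Clic5 (0.98), and Pecam1 like Prkd2 (0.96) and S1pr1 (0.92), among 8064 genes. Esam was most like Tspan7 and Rapgef3 (both 0.91), Tjp1 like Wwtr1 (0.97) and Rilpl1 (0.96), Jam2 like Mecom and Kcnc2 (both 0.98), and Jam3 like Filip1 (0.95) and Slc12a4 (0.93). Cgn was most like Crym and Krt7 (both 1.00). Icam1 and Vcam1 had no match as close, with 0.82 for Slfn5 and 0.80 for Rab5c, and 0.88 for Pnrc2 and 0.86 for Zfp423. Among the members the highest r was 0.94, for Cdh5 and Cldn5, and Cgn had an r of -0.40 to 0.20 with the 9 others.

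Several limits hold for all of these values. All cells form 1 pooled sample, so the spread between mice is not known, and a call rests on counting error alone. Antisense genes overlap Cdh5, Jam3, Icam1 and Vcam1, and the strand setting of the counting was not stated. Those partners had 35 to 141 UMIs in all cells, against 4967 to 103566 for the members. On their own strand Tjp1 overlaps Gm44794 and Gm44792 and Jam2 overlaps Gm25908, which were not analysed here.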

How the data were processed

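Single-cell RNA was counted in pooled suspensions of 8 mice. The authors deposited raw UMI counts whose maker is given as Cell Ranger 7.1.0 per the file headers. Seurat 4.3.0.1 and the build mm10 are named in the submitters' processing notes, and no source names the annotation. The members and gene lists were chosen with earlier results of these data known.

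Barcodes with at least 500 UMIs, 300 genes and under 15% mitochondrial UMIs were kept (23666 of 24046). Doublets were called by Scrublet within each set of suffixes (scanpy 1.11.5; expected rate 6%), which removed 719 cells (3.04%). Cells took a class from fixed marker gates (a marker found with 1 UMI), and 1055 cells of several gates and 3341 of none were left out. Classes under 50 cells were not described, except for the part of intermediate cells in the lymphatic sums of Jam2 and Icam1. UMIs were summed per class and scaled to CPM. Intervals are exact 95% ones (Poisson for levels, conditional binomial for ratios, Clopper-Pearson for shares; scipy 1.17.1) and cover counting error only. A call is a ratio of 2 or more either way, with an interval on one side of 1, among genes at 20 CPM in either class; where each cell was weighted alike it rests on the ratio alone. The ratio intervals were tested on class sums simulated with counting error alone. That simulation left out the gathering of UMIs in few cells and the spread between mice. Clusters (30 components, 15 neighbours, resolution 1) were built without the listed genes. All members were named in every described class; genes of the wider list were named at 100 CPM in an endothelial class or mesothelium, other names being marked, and likeness named the 2 highest genes per member. Alternatives changed the gates, filters, doublets, mixed cells, scaling, suffixes, level and depth.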

Additional observations from a re-analysis of the deposited data

Results flagged for a closer look

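In 46 pairs of a gene and a class, each with 8 suffixes, the gap between an end suffix and its neighbour was set against the whole range. In 9 pairs the highest suffix stood apart. The rule's rate of about 1 in 20 holds for normally spread values, and levels from few cells and UMIs need not be so spread. That rate therefore cannot show whether 9 pairs are more than chance gives. In initial lymphatic cells these were Cdh5 in suffix 4, at 782 CPM from 27 UMIs in 5 cells, Pecam1 in suffix 6, at 551 CPM, and Jam3 in suffix 7, at 63.0 CPM from 6 UMIs. In Rgcc-positive cells they were Cldn5 in suffix 7, at 2813 CPM, and Icam1 in suffix 2, at 1377 CPM from 63 UMIs in 14 cells. In Plvap-positive cells Cldn5 reached 329 CPM in suffix 3, which held 43 of the 78 UMIs of the class. In mesothelium Pecam1 reached 7.31 CPM in suffix 1 and Vcam1 46.9 CPM in suffix 7. In collecting lymphatic cells Cgn reached 5.26 CPM in suffix 2, from 2 UMIs. The suffixes carry no label.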

How the results depend on the processing

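No paired analysis was possible because the labels tie no suffix to a mouse and the results come from no test; counts over suffixes describe unlabelled samples. The count of members called kept within 1.5 times its value under all alternatives except in 2 comparisons. For lymphatic over blood endothelium, the count called higher was 1 and became 0 with each cell weighted alike and 0 in the second set of suffixes (Cldn5, log2 ratio 0.33 and 0.85). For Plvap-positive over Rgcc-positive cells, the count called lower was 1 and became 2 with markers found at 2 UMIs or more, 2 with classes from clusters and 2 with mixed cells kept, Jam3 being added (log2 ratio -1.38, -1.83 and -1.35). No log2 ratio called in the main setting changed sign under an alternative. Of 501 log2 ratios under alternatives, called or not, 104 moved past the main counting interval and 397 did not. Of levels 145 moved and 485 did not, and of shares of cells at other depths 71 moved and 29 did not. Icam1 in mesothelium over endothelium was called only with each cell weighted alike, at 0.495. With a pseudocount of 1, the 2 genes named as most alike stayed for Tjp1, Icam1 and Cgn, 1 of 2 stayed for Cdh5, Cldn5, Pecam1, Esam, Jam2 and Jam3, and 0 for Vcam1. Few cells per class, unequal depth and pooled mice limit the values.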
